A study of Homo sapiens with 4 samples.

Results

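The CC chemokines are a family of small secreted proteins, and their messenger RNAs were followed here in the human leukaemia line HL-60 after treatment with all-trans retinoic acid (ATRA). The genes were taken by name: every row of the deposited expression table whose symbol was CCL followed by a number, which gave 6 of 1648 listed genes, namely CCL2, CCL4, CCL5, CCL22, CCL23 and CCL24. The ATRA group had been cultured with 1 µM ATRA for 4 days, and the control group with an equal volume of ethanol, the solvent of ATRA, for the same time. In both groups the medium and the added compound were renewed at day 2. Sequencing covered the poly(A) RNA of 2 samples per group, all of this single cell line, which the labels describe as an acute promyelocytic leukaemia line from peripheral blood (ATCC CCL-240).

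Chemokines are bound by receptors with a membrane-spanning serpentine fold that couple to inhibitory G proteins, and cells that carry such a receptor move towards the source of the chemokine. In the CC subfamily the first cysteines of the protein stand next to each other. Monocytes, macrophages, dendritic cells and granulocytes make many of these proteins, and most of the receptors bind several ligands. HL-60 cells mature along the granulocyte path when given retinoic acid, and the comparison asks how gene expression in ATRA-treated cells differs from that in the solvent controls.

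All 6 CC chemokine messages were higher with ATRA, from 2.92-fold for CCL5 to 681-fold for CCL2 and a ratio of 1096 on 1 control read for CCL22. CCL2 reached the highest level in ATRA cells, also per kilobase of transcript, with 21457 ± 10534 normalised reads in ATRA cells and 31.5 ± 17.1 in control cells (SD, n = 2 each). CCL22 and CCL24 had 1 read and 0 reads over both control libraries, whereas CCL5 was already at 280 ± 103 normalised reads without ATRA. A normalised read is a read count divided by the size factor of its library. The deposited file holds group means only, and the counts of the 4 libraries were restored from these means as described in the processing. The libraries of a group are called a and b, because nothing in the file links a restored library to a numbered replicate, and a is the one with the larger size factor in its group, so that library a of the ATRA group has no tie to library a of the control group. The reads in the listed genes came to 5576516 and 4940243 in the ATRA libraries and to 3799430 and 3288055 in the control libraries.

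The authors listed a gene where its adjusted p was under 0.01, which applied to 1645 of 12265 tested genes or 13.4%, and 3 further genes. All 6 members are therefore selected for a difference between these libraries, and what follows describes their values without a further test of that difference. The groups did not overlap for any of the 6 members, and in the table as a whole this was so for 100% of genes. The members were higher with ATRA in 6 of 6 cases, against 61.8% of the listed genes, and 4 of 6 were over 16-fold higher, against 11.3% of the listed genes. The median log2 fold change of the members was at least 5.84, with CCL24 at its lower bound, beside 1.23 for all 1648 genes. An exact permutation test of 2 against 2 libraries, two-sided, cannot go below p = 0.333, and each member gave that value. No label states that replicate samples came from separate cultures, so the spread between them may be technical. In bulk RNA a larger number of cells making a chemokine and more RNA per cell cannot be told apart.

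The sequences just upstream of the genes show which short elements stand near the start sites of CCL22 and CCL24, which were almost silent in controls, and of CCL23, which was not. The RefSeq promoter table (GRCh38.p14) held windows for 3 of the 6 members, CCL22, CCL24 and CCL23, and the 250 bases before the start are printed 5′ to 3′ on the strand of the gene. Capitals mark matches to known consensus sequences. Those of myeloid factors were GAGGAA for PU.1 and its ETS relatives and TTGCNNAA for the C/EBP family. Those of inducible factors were TGANTCA for AP-1, TTCNNNGAA for the STAT family and GGGRNN followed directly by YYCC for NF-kB. N stands for any base, R for A or G and Y for C or T. The letters of the GATA family (AGATAA) and of the half-site bound by retinoid receptors (AGGTCA) were searched as well, all of these on both strands. The TATA box (TATAAA) was searched on the forward strand only.
CCL22: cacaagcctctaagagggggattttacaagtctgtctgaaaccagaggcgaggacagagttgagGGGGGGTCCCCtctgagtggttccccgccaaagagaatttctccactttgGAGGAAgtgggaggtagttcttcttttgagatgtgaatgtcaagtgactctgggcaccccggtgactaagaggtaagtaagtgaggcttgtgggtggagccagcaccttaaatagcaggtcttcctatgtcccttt
CCL24: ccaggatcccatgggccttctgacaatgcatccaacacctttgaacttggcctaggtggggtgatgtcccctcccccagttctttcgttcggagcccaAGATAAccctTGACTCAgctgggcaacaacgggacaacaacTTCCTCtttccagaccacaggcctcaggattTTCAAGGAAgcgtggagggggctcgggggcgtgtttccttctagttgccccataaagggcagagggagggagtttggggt
CCL23: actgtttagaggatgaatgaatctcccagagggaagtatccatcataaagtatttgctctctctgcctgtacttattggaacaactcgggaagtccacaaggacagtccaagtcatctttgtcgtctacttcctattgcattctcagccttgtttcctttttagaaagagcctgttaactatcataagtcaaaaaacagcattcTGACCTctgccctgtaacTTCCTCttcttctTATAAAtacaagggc

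The CCL22 window lies at chr16:57392445-57392694 on the forward strand of GRCh37 and the CCL24 window at chr7:75443125-75443374 on the reverse strand. The CCL23 window comes from the reverse strand of chromosome 17 and is given without a position, since its letters were not found as a whole in GRCh37. In CCL22 the capitals are 2 overlapping NF-kB matches between 186 and 176 bases before the start, each of them read on both strands, and a PU.1 match between 136 and 131. In CCL24 they are a GATA match (152 to 147 bases before the start), an AP-1 match (142 to 136), a PU.1 match on the reverse strand (111 to 106) and a STAT match (80 to 72). In CCL23 they are a retinoid half-site on the reverse strand (46 to 41 bases before the start), a PU.1 match on the reverse strand (28 to 23) and a TATA box (15 to 10). The PU.1 letters were thus in all 3 windows, and they were also in 23.6% of 35116 promoter windows of the same length. The shares of those windows were 9.96% for NF-kB, 9.17% for GATA, 6.57% each for AP-1 and STAT, 12.1% for the retinoid half-site, 9.05% for C/EBP and 6.80% for the TATA box. A match describes letters and not a bound site. CCL24 has a second RefSeq start further upstream, whose window (chr7:75452691-75452940) held an AP-1 match 13 to 7 bases and a PU.1 match 6 to 1 bases before that start. The G and C content was 51.2% in the CCL22 window, 56.4% in the printed CCL24 window and 40.8% in the CCL23 window.

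CCL2, known as monocyte chemoattractant protein 1, draws monocytes through the receptor CCR2. The gene lies on chromosome 17 of GRCh37 from 32582293 to 32584227, on the forward strand. It had 14008 and 28906 normalised reads in ATRA libraries a and b, against 19.4 and 43.6 in control libraries a and b. The ATRA libraries lay 2.06 times apart and the control libraries 2.24 times, and both distances were far smaller than the distance between the groups. The ratio of the means was 681 (95% counting interval from 534 to 904, which covers the sampling of reads only), a log2 fold change of 9.41. Omitting ATRA library b gave 8.80, and omitting control library b gave 10.11. CCL2 stood at rank 15 of the 1648 genes by log2 fold change.

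CCL22, the macrophage-derived chemokine, attracts T cells that carry CCR4, among them regulatory T cells. It lies on chromosome 16 (57392695 to 57400101, forward strand). ATRA libraries a and b had 703 and 587 reads, and control libraries a and b had 0 and 1. In normalised reads this was 640 and 585 with ATRA, which is 1.09 times apart, against 0 and 1.12 in controls. Both ATRA libraries thus shared a level closely, whereas the controls stood at the edge of detection. The ratio was 1096, but on a single control read its 95% counting interval ran from 211 to 46661. The log2 fold change of 10.10 became 9.10 when control library a was omitted, and a bound of 7.71 when control library b, which held the only read, was omitted.

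CCL24, or eotaxin-2, acts on eosinophils and basophils through CCR3. It lies on chromosome 7 (75440143 to 75452674, reverse strand), away from the large cluster of CC chemokine genes. There were 150 and 325 reads in ATRA libraries a and b and 0 reads in both control libraries. The normalised values of 136 and 324 with ATRA lay 2.37 times apart, so that its level in treated cells is known less closely than that of CCL22. Taking 3 reads over the control group as the limit that a count of 0 allows, CCL24 was at least 148-fold higher with ATRA, a log2 bound of 7.21. Omitting 1 library gave bounds of 7.70 and 6.45 (ATRA a and b) and of 6.10 and 6.30 (control a and b).

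CCL4, macrophage inflammatory protein 1 beta, attracts monocytes and T cells. It lies on chromosome 17 (34431220 to 34433014, forward strand). It had 327 and 159 normalised reads in ATRA libraries a and b, against 10.7 and 11.2 in control libraries a and b. The controls were nearly equal, at 1.04 times apart, while library a was 2.06 times above library b with ATRA. The ratio was 22.2 (95% counting interval from 14.6 to 36.8). On the log2 scale this was 4.47, and 3.86 when ATRA library a was omitted. CCL4 has near-identical copies, CCL4L1 and CCL4L2, which were not in the table, and the assignment of reads to CCL4 is uncertain for that reason.

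CCL23, also called myeloid progenitor inhibitory factor 1, is a ligand of CCR1. It lies on chromosome 17 (34340096 to 34345009, reverse strand). Its normalised reads were 384 and 205 in ATRA libraries a and b, against 60.3 and 15.6 in control libraries a and b. The ATRA libraries lay 1.87 times apart and the control libraries 3.85 times, with control counts of 62 and 14 reads. The ratio of 7.76 (95% counting interval from 5.95 to 9.73) and its log2 of 2.96 therefore rested on control libraries that differed widely. Omitting control library a gave a log2 fold change of 4.24, and omitting control library b gave 2.29.

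CCL5, known as RANTES, binds CCR1 and CCR3, among other receptors, and attracts T cells, monocytes and eosinophils. It lies on chromosome 17 (34198495 to 34207797, reverse strand). It had 837 and 795 normalised reads in ATRA libraries a and b, against 353 and 207 in control libraries a and b. CCL5 was the member with the most message in untreated cells and with the smallest difference between the groups. The ratio was 2.92 (95% counting interval from 2.60 to 3.16). The log2 fold change of 1.54 lay between 1.21 and 1.98 whichever library was left out, and CCL5 stood at rank 651 of the 1648 genes.

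**Figure D1:**
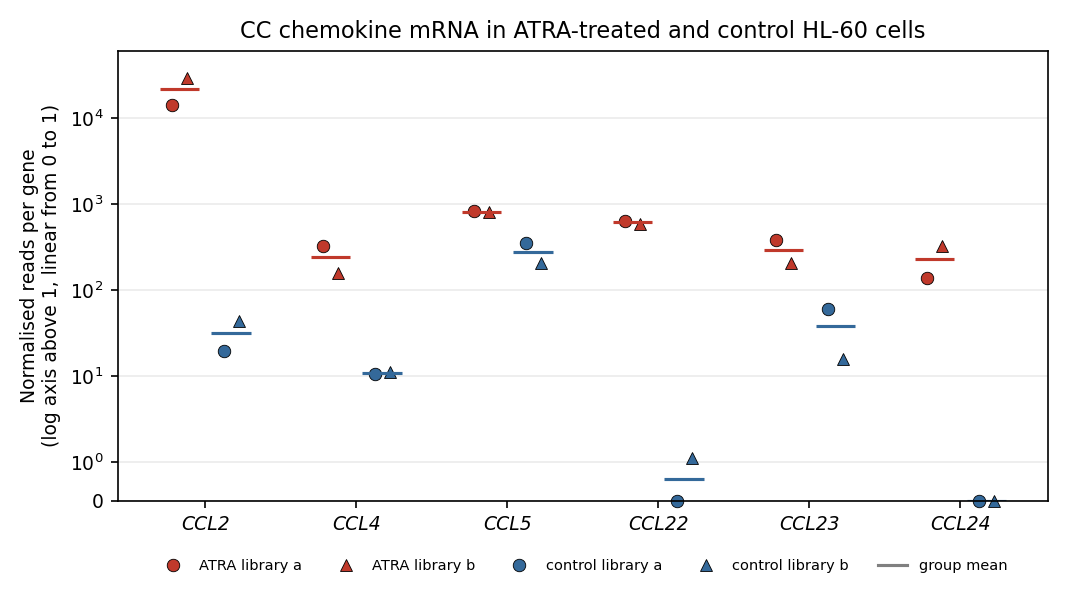
Normalised reads of the 6 CC chemokines (vertical axis, logarithmic above 1) in ATRA libraries a and b (red) and control libraries a and b (blue), with bars at the group means. In each gene both red points lie above both blue points, and the controls of CCL22 and CCL24 lie at or near 0.

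**Figure D2:**
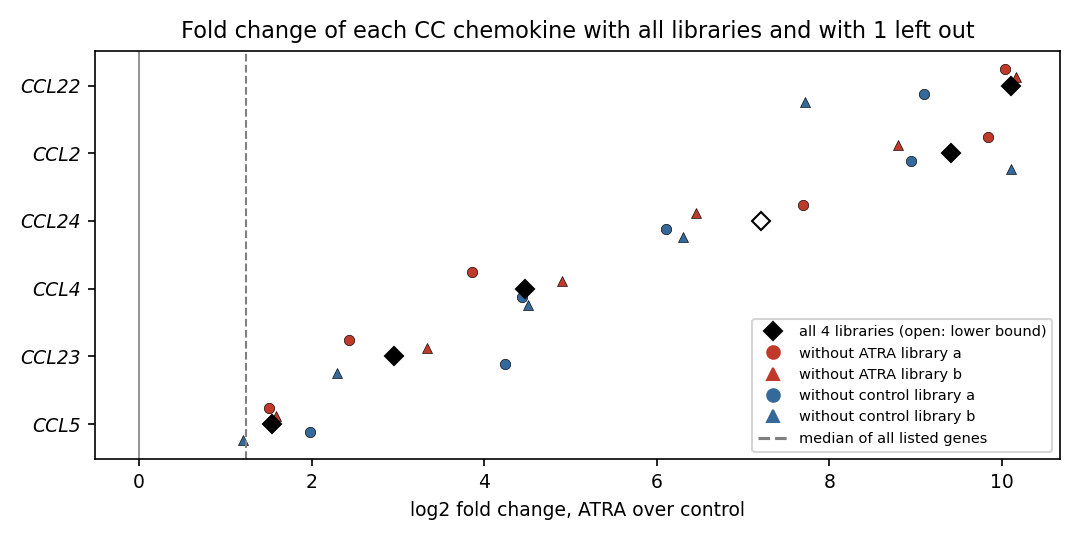
Log2 fold change of ATRA over control for each CC chemokine (horizontal axis) with all 4 libraries (diamonds, open for the lower bound of CCL24) and with each library left out in turn (circles for a, triangles for b). All points lie above 0, and CCL22 moves the most, between 7.71 and 10.16, on its single control read.

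Read counts were divided by the length of the canonical transcript to compare the genes with each other, which gives normalised reads per kilobase. In ATRA cells CCL2 was at 28956 ± 14217 reads per kilobase (SD, n = 2), followed by CCL5 at 628 ± 23.0, CCL23 at 469 ± 201, CCL4 at 368 ± 180, CCL22 at 210 ± 13.1 and CCL24 at 162 ± 93.3. CCL2 stood apart from all others, whereas every other pair of neighbours in this order differed by less than the larger of their SDs. In control cells the order was CCL5 at 215 ± 79.6 reads per kilobase, CCL23 at 60.5 ± 50.3, CCL2 at 42.5 ± 23.0, CCL4 at 16.6 ± 0.512, CCL22 at 0.192 ± 0.271 and CCL24 at 0. CCL5 lay above CCL23 by more than the SD of either gene, and the libraries of CCL23 and CCL2 overlapped. The leading CC chemokine message was thus CCL2 with ATRA and CCL5 in controls.

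The 2 libraries of a group did not order the members in the same way. Of the 6, 3 lay over 2 times apart between the ATRA libraries, a distance reached by 4.49% of the listed genes, whose median was 1.18 times. CCL2 and CCL24 were higher in ATRA library b, with a log2 of library a over library b of -1.05 and -1.24. CCL4 and CCL23 were higher in ATRA library a, with 1.04 and 0.90. CCL5 and CCL22 were close, at 0.07 and 0.13. The ATRA libraries of CCL24, CCL2, CCL4 and CCL23 lay further apart than those of 97.1%, 96.1%, 96.0% and 94.5% of the listed genes. Over the control libraries the median listed gene was 1.24 times apart, and 8.01% of genes exceeded 2 times. There the log2 of library a over library b was -1.12 for CCL2, -1.08 for CCL22, 0.77 for CCL5 and 1.88 for CCL23, while CCL4 with -0.06 was level and CCL24 had no reads. The value for CCL22, with reads plus 1, rests on its single read.

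**Figure D3:**
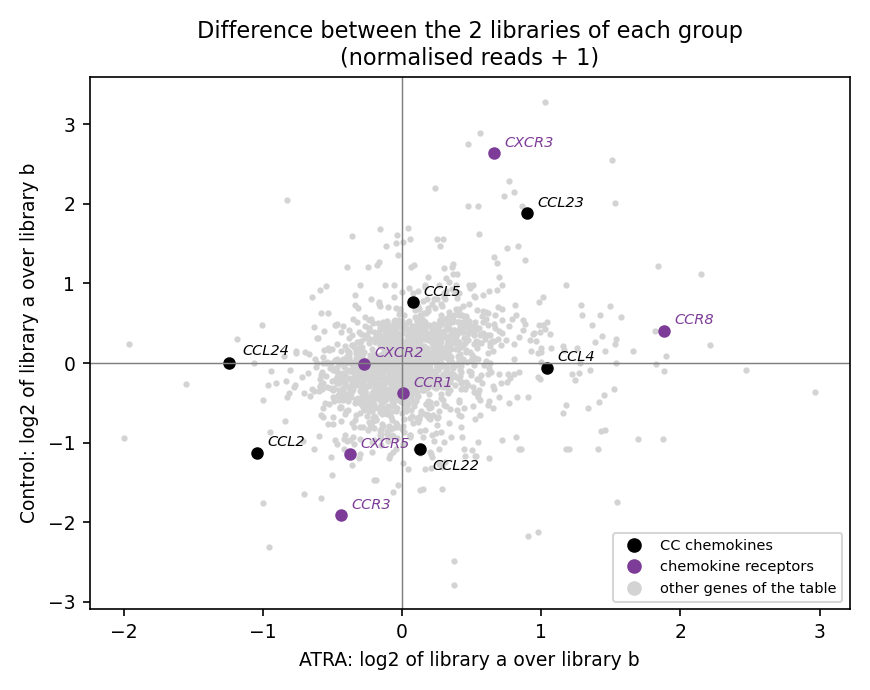
Log2 of library a over library b, from normalised reads plus 1, in the ATRA group (horizontal axis) and the control group (vertical axis) for CC chemokines (black), chemokine receptors (purple) and the other listed genes (grey). Most grey points lie near the centre. CCL24 lies far to the left (-1.24 with ATRA) and CCL23 far up (1.88 in controls), and since the libraries of the 2 groups are not tied, only the distance from 0 on each axis can be read.

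Cell type markers were read beside these values. Over all genes 13.4% of those tested were listed, and 61.8% of the listed ones were higher. Of 15 monocyte and macrophage markers 7 were in the table, 6 higher and 1 lower with ATRA, and their summed level was 15082 to 18370 normalised reads in ATRA libraries and 3846 to 6375 in control libraries. CSF1R, the receptor for macrophage growth factor, was 33.2-fold higher (760 ± 117 normalised reads with ATRA and 22.9 ± 10.3 in controls), CLEC7A, which recognises fungal glucans, 29.0-fold higher, and MERTK, a receptor for dying cells, 19.6-fold higher on 6 control reads. CD1C, which presents lipids on dendritic cells, had 73 reads with ATRA and 1 in controls. The 1 lower gene was C1QA, a complement subunit, at 27.4 ± 6.30 with ATRA and 367 ± 100 in controls, named here after its values were seen. None of the 7 was at 0 in either group, though CD1C had 0 reads in control library a. The table held 6 of 15 neutrophil markers, each of them higher, with sums of 30599 to 39614 normalised reads with ATRA and 2663 to 2806 in controls. ITGAM, the CD11b integrin chain, was 50.6-fold and S100A9, a calcium-binding protein of granulocytes, 97.4-fold higher. CEACAM8, a granulocyte adhesion molecule, had a ratio of 142 on 3 control reads, and OLFM4, a protein of neutrophil granules, was at 0 in both controls and at least 128-fold higher. Without 1 library the log2 fold change of MERTK lay between 3.59 and 5.72, that of CD1C between 3.59, as a bound, and 6.26, that of CEACAM8 between 6.30 and 7.68 and the bound of OLFM4 between 5.89 and 7.10. The part of these cell types in the chemokine values was not tested.

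Eosinophil, basophil and mast cell markers were lower, with 4 of 12 listed, each of them in the same direction. Of all tested genes 13.4% were listed, and 61.8% of the listed genes were higher. Their summed level was 38229 and 10773 normalised reads in ATRA libraries a and b, against 215033 and 93814 in control libraries a and b, nearly all of it from PRG2, the eosinophil granule major basic protein. Within each group the library with the larger sum was also the one with more CCL23 and more CCL5. CCL2, CCL4, CCL22 and CCL24 did not share this order in both groups. The monocyte and macrophage sum did, at 18370 and 15082 in ATRA libraries a and b. It was 6375 and 3846 in control libraries a and b. The part of any of these cells in the CCL23 and CCL5 values was not tested. PRG2 is 1 of the 3 genes that did not meet the authors' limit. CPA3, a mast cell protease, was 42.8-fold lower on 5 ATRA reads, IL5RA, the interleukin 5 receptor, 7.70-fold lower and SIGLEC8, a lectin of eosinophils, 7.09-fold lower. Without 1 library the log2 fold change of PRG2 lay between -3.85 and -1.92, that of CPA3 between -5.47 and -4.42 and that of SIGLEC8 between -3.83 and -2.24. Of 12 lymphoid markers 2 were in the table, or 16.7%, a share near the 13.4% of all tested genes and so no result about lymphoid cells. CD3E, a chain of the T cell receptor complex, was 8.06-fold higher, and NKG7, a granule protein of killer cells, was 3.38-fold lower. The list sums were 213 to 235 normalised reads with ATRA and 229 to 287 in controls.

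The receptors for these ligands were read next. The table held 3 of 13 CC chemokine receptors looked up, of which 2 were higher with ATRA and 1 was lower. Beside this, 13.4% of all tested genes were listed and 61.8% of listed genes were higher. CCR1, the receptor for CCL5 and CCL23, had 4797 and 4783 normalised reads in ATRA libraries a and b, against 295 and 383 in control libraries a and b. It was the most abundant of the chemokine receptors described here in ATRA cells, at 1810 ± 3.63 reads per kilobase (SD, n = 2), and was 14.1-fold higher than in controls (95% counting interval from 13.2 to 15.5). The log2 fold change of CCR1 was 3.82, with a range of 3.64 to 4.02 over the libraries left out.

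CCR3, the eotaxin receptor that binds CCL24 and CCL5, had 927 and 1257 normalised reads with ATRA, against 1.94 and 10.1 in controls, where 11 reads were counted in all. Both ATRA values were high while the controls lay 5.17 times apart. The ratio was 182 (95% counting interval from 106 to 380), and the log2 fold change of 7.51 became 6.76 when control library a was omitted and 9.13 when b was. In the annotation CCR3 (chromosome 3, 46172382 to 46308197, forward strand) spans CCR1 (46243202 to 46249804, reverse strand). These are spans with introns, and overlap of their exons was not examined. Whether counting used strand is not given in the sources used here. Reads where exons of both genes overlap, if there are any, may therefore not be separable.

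CCR8, the receptor for CCL1, was lower with ATRA, unlike CCR1 and CCR3. It had 6.37 and 0.997 normalised reads in ATRA libraries a and b, against 234 and 177 in control libraries a and b. It was 55.8-fold lower (95% counting interval from 27.4 to 127), on 8 ATRA reads. On the log2 scale this was -5.80, or -7.69 when ATRA library a was omitted and -5.01 when b was. CCR8 lies 6.80 Mb from CCR3 on chromosome 3.

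Ligands and receptors could be paired in the table as follows. CCL5 stood there with CCR1 and CCR3, CCL23 with CCR1 and CCL24 with CCR3, and in each of these pairs both messages were higher with ATRA. CCR2, the receptor for CCL2, and CCR4, the receptor for CCL22, were not in the table. Genes missing from the table were left untested or missed the authors' limit of 0.01, and no value can be given for them.

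The table held 3 of 9 receptors of other chemokine families, beside 13.4% of all tested genes. Each of the 3 was higher with ATRA, as were 61.8% of listed genes. CXCR2, which guides neutrophils towards interleukin 8, had 2147 and 2597 normalised reads with ATRA, against 1181 and 1188 in controls, a ratio of 2.00. CXCR5, the receptor by which B cells enter follicles, had 524 and 679 with ATRA, against 0.972 and 3.35 in controls, a ratio of 278 on 4 control reads (95% counting interval from 112 to 1057). CXCR3, a receptor for interferon-induced chemokines, had 219 and 139 with ATRA, against 39.9 and 5.59 in controls, a ratio of 7.87. CXCR3 resembled CCL23 in that its control library a lay far above b, and its log2 fold change of 2.98 became 5.00 when control library a was omitted and 2.17 when b was. That of CXCR5, 8.12, became 7.49 when control library a was omitted and 9.27 when b was.

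**Figure D4:**
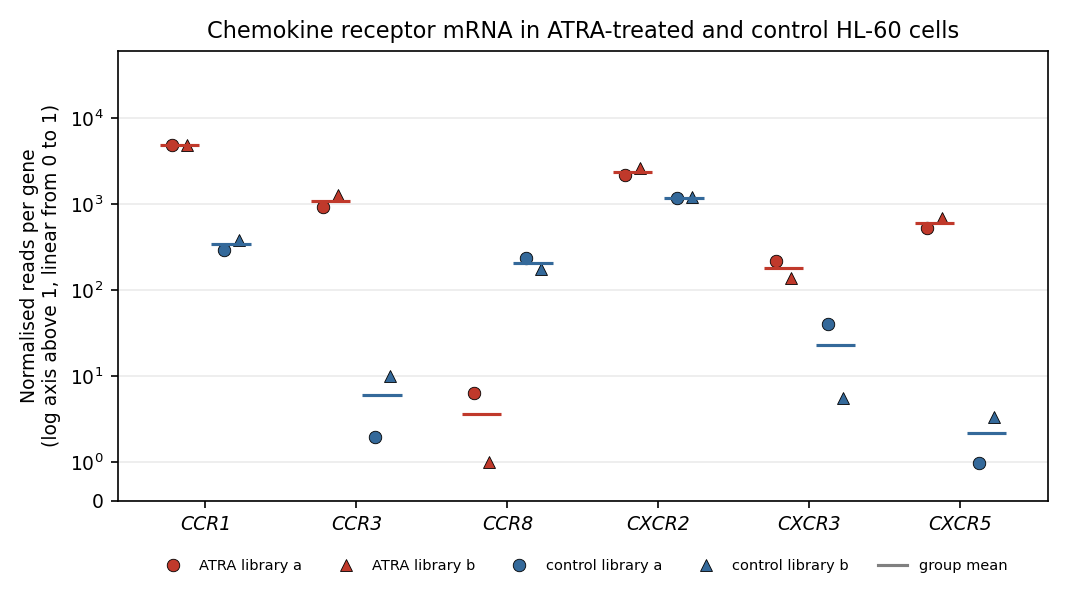
Normalised reads of 6 chemokine receptors of the table (vertical axis, logarithmic above 1) in ATRA libraries a and b (red) and control libraries a and b (blue), with bars at the group means. CCR8 is the gene whose red points lie below the blue ones, and CCR3 and CXCR5 lie near 10 normalised reads or below in controls.

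The path from receptor to movement was covered by a list of 30 genes, of which 18 were in the table. All 18 were higher with ATRA, and their median log2 fold change was 2.51. Over all genes 13.4% of those tested were listed, 61.8% of the listed ones were higher, and the median was 1.23. FGR, a SRC family kinase of myeloid cells, had 23497 ± 955 normalised reads with ATRA and 7.39 ± 2.20 in controls, which is 3181-fold higher. GNG2, a G protein gamma subunit, was 174-fold higher at 13712 ± 1933 with ATRA and 78.8 ± 4.03 in controls. RGS2, which shortens G protein signals, was 19.3-fold higher, and PIK3CG, the phosphoinositide kinase that G protein beta-gamma subunits activate, was 8.82-fold higher.

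Transcription factors and sensors that are known to govern chemokine genes had smaller median fold changes than the chemokines, a comparison without a test. Of 20 NF-kB pathway genes 3 were in the table, or 15%, a share near the 13.4% of all tested genes and so no result about the pathway. These 3 were higher, as were 61.8% of listed genes: BCL3, a nuclear co-regulator, at 4.53-fold, REL, an NF-kB subunit, at 2.53-fold and IKBKE, a kinase of the pathway, at 2.49-fold. Of 15 interferon regulatory and STAT factors 4 were in the table, all higher: IRF7 at 4.01-fold, IRF1 at 3.61-fold, STAT2 at 3.51-fold and STAT6, which relays interleukin 4 and 13, at 2.03-fold. Their median log2 fold changes were 1.34 and 1.83. Of 25 inflammatory cytokines and sensors 9 were in the table, 8 higher and 1 lower, with a median of 1.97. The cytokine IL1B was at 167 ± 38.4 normalised reads with ATRA and 6.20 ± 0.863 in controls, which is 27.0-fold higher, and MYD88, the adaptor of Toll-like receptors, was at 4089 ± 35.5 with ATRA and 230 ± 24.0 in controls, which is 17.8-fold higher. TLR1 was 11.98-fold and TLR8 9.83-fold higher. The lower gene was TLR9, a sensor of bacterial DNA, at 70.4 ± 16.3 with ATRA and 623 ± 138 in controls, named here after its values were seen.

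The 6 genes lie on 3 chromosomes. Of 28 CC chemokine symbols looked up, 22 were absent. On chromosome 17, which holds 18 of the 28, 4 genes were listed, CCL2, CCL5, CCL23 and CCL4, and their immediate CC chemokine neighbours CCL7, CCL3, CCL18 and CCL15 were not. CCL2 lies 1.61 Mb from CCL5, CCL5 lies 223 kb from CCL4, and CCL23 and CCL4 are 86.2 kb apart. CCL17 beside CCL22 on chromosome 16 and CCL26 beside CCL24 on chromosome 7 were not in the table either. Over all tested genes 13.4% were listed. Within 500 kb on either side, 0 of 7 other genes were listed around CCL2 and 4 of 32 around CCL4. It was 3 of 32 around CCL23 and 3 of 31 around CCL5, and the windows of CCL4, CCL23 and CCL5 share genes. Members were counted there as neighbours of each other. Those listed around CCL4 were CCL5, CCL23, TBC1D3H and MYO19. Around CCL23 they were CCL5, CCL4 and TBC1D3H, and around CCL5 they were CCL23, CCL4 and SLFN12. Around CCL24, 4 of 15 were listed, namely HIP1, RHBDD2, POR and TMEM120A, and all 4 were higher with ATRA. The table held 0 of 20 chemokines of other families and 0 of 12 proteases known to trim chemokines.

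The values above are scaled by the size factors of the deposited means. When the libraries were scaled by their total reads in the listed genes, the median log2 fold change of all genes shifted by -0.44, and all 6 members were still higher with ATRA. CCL5 had the lowest log2 fold change, 1.10, and CCL22 the highest, 9.65. The share of listed genes that were higher was 61.8% under both scalings.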

How the data were processed

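Poly(A) RNA of 2 ATRA and 2 control samples of HL-60 cells was sequenced. Adapters were removed with cutadapt, ribosomal reads were filtered with Bowtie, reads were quantified with RSEM 1.2.7 on the hg19 annotation, and groups were compared with DESeq2 1.4.5 by the authors, as their methods and processing notes state. The deposited table has 1648 genes and no column per sample. Its 3 mean columns are a signal deposited by the authors, in which read counts were scaled by a size factor per library and averaged within groups. The remaining columns hold the authors' fold changes, p-values and adjusted p-values as deposited. The p-values were read only to find the limit of the table, 1645 genes with an adjusted p under 0.01, and no fold change was used.

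The 73360 digits of the mean columns held 0 zeros, and 20.2% were 1, so each 0 was taken to have been written as 1. Each group mean was then resolved into 2 whole read counts over 2 size factors, 1.10 and 1.00 for ATRA and 1.03 and 0.895 for control libraries. Exactly 1 solution was found in all 1648 genes. Tested on simulated data, the search returned the counts of 100% of genes. That test started from the size factors already found. Its simulated counts were whole and their means were printed with 0 as 1. It therefore did not test the finding of the size factors or these assumptions. That RSEM estimates were rounded to whole counts is assumed by this step and not stated by a source.

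Fold changes are ratios of restored group means. A group with 0 reads was set to 3 reads over the group, and intervals are 95% exact binomial intervals on pooled reads, which cover counting error only. No count model was fitted, because the rows had been selected by the authors on these libraries. The alternatives were the means as printed, pseudocounts of 1 and 10, total-read scaling, a 4-fold limit, a minimum mean of 10 and leaving out each library. Named genes are all members, the listed chemokine receptors, the 4 largest absolute log2 fold changes of each other list with at least 10 reads in the higher group, and the 3 genes nearest to each member by Euclidean distance over the 4 libraries. Some items are not reported here. Members and lists were chosen with earlier results of these data known. Gene positions are from GENCODE on GRCh37 and promoter windows from RefSeq. Python 3.11.15, numpy 2.4.6, pandas 2.3.3, scipy 1.17.1 and matplotlib 3.10.9 were used.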

Additional observations from a re-analysis of the deposited data

How the results depend on the processing

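No direction changed under any alternative run for the 6 chemokines. Leaving out a library or adding a pseudocount could not change one, since the groups did not overlap for any member. The count of members higher with ATRA was 6 in every alternative run for it, and the count over 16-fold lay between 3 and 5. The median log2 fold change lay between 5.27 and 6.10 in the alternatives run for it. No median was taken under total-read scaling or with a pseudocount of 10. At that pseudocount the middle members, CCL4 and CCL24, stood below this range. Low control counts made the size of 3 fold changes depend on the setting. The log2 fold change of CCL22 was 8.62 from the means as printed, 8.72 with a pseudocount of 1 and 5.88 with a pseudocount of 10. With a pseudocount of 10 it was 3.51 for CCL4 and 4.47 for CCL24. Without 1 control library the values for CCL22 were 7.71 and 9.10 and the bounds for CCL24 were 6.10 and 6.30. Requiring a mean of at least 10 normalised reads removed no listed chemokine. No paired analysis was possible because the means carry no replicate numbers and the restored libraries cannot be tied to them. With 2 libraries a group the spread itself is poorly known, and genes absent from the table have no value here.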

Other observations

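The listed genes nearest to each chemokine over the 4 libraries were read as a description, with each gene centred on its own mean on the log2 scale of normalised reads plus 1. The points share their libraries, and nearness over 4 values has no test. Genes chosen this way tend to share the library differences of the chemokine because of that choice. CCL2 was nearest to BATF2, an interferon-induced leucine zipper factor (646 ± 88.3 normalised reads with ATRA and 0 in both controls, distance 0.963), to PTGES, the prostaglandin E synthase (908 ± 242 with ATRA and 0 in both controls, distance 0.966), and to LAMB3, a laminin chain (822 ± 107 with ATRA and 1.04 ± 0.103 in controls, distance 1.17). Like CCL2, these 3 were higher in ATRA library b. CCL22 was nearest to SIGLEC16 (distance 0.632), to CYBB, the catalytic subunit of the phagocyte oxidase (23232 ± 886 with ATRA and 82.9 ± 25.0 in controls, distance 0.675), and to LILRA3 (468 ± 191 with ATRA and 0.559 ± 0.790 in controls, distance 0.682). CCL24 was nearest to OLFM4 (distance 0.726), GNG2 (0.744) and CD36, a scavenger receptor (795 ± 186 with ATRA and 1.53 ± 0.585 in controls, distance 0.854).

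The chemokines with smaller changes had nearer neighbours. Their log2 fold changes also lay closer to 1.23, the median of all listed genes, so the order of distances is not read as a trait of the chemokines. CCL5 was nearest to CHPF, a chondroitin synthase subunit (1743 ± 65.3 with ATRA and 628 ± 263 in controls, distance 0.0945), ATP10D (0.117) and ARRDC4 (0.131). CCL4 was nearest to SSPO (0.146), to LRP1, a scavenger and signalling receptor (1198 ± 535 with ATRA and 65.4 ± 12.0 in controls, distance 0.344), and to LGALS3BP (0.379), all higher in ATRA library a. CCL23 was nearest to C19orf35 (0.323), to EGR2, a zinc finger factor of macrophages (138 ± 58.3 with ATRA and 16.1 ± 10.2 in controls, distance 0.419), and to RBM47 (0.433), and within each group all 3 were higher in the library with more CCL23. Among the 6 chemokines themselves the nearest pair was CCL2 and CCL22 (1.06) and the farthest CCL2 and CCL5 (7.94).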
